A study of Mus musculus with 8 samples.

Results

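Hyaluronan is a long unbranched sugar polymer of the matrix around cells, and the 9 genes followed here encode proteins that make it, bind it or cut it. They were picked by symbol from the 37310 genes of the count table, by a rule that uses no measured value, though with earlier results of these data known, as the synthases *Has1*, *Has2* and *Has3*, the binding protein *Tnfaip6*, the receptor *Cd44*, the proteoglycans *Vcan* and *Acan*, and the hyaluronidases *Hyal1* and *Hyal2*. Transcription was profiled by RNA sequencing in NMuMG cells, which are epithelial cells derived from the mammary gland of a healthy mouse. The 8 libraries were control cells, control cells given TGF-β1 at 10 ng/ml for 2 h, *Lnc-Nr6a1*-depleted cells (the genotype KO of the labels), and these cells given the same TGF-β1 treatment, with 2 libraries in each of the 4 groups. Depletion was by CRISPR-Cas9 deletion of the promoter and first exon of this long non-coding RNA, followed by outgrowth of clones. Which clone or clones were sequenced is not given in the sources used here, so a difference between clones and an effect of the deletion cannot be told apart.

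Hyaluronan synthases sit in the plasma membrane, join UDP-glucuronic acid and UDP-N-acetylglucosamine, and push the growing chain out of the cell. Outside, the chain is held by CD44 at the cell surface and by the link domains of versican and aggrecan in the matrix, while TSG-6, the product of *Tnfaip6*, loads it with heavy chains of the serum protein inter-α-inhibitor. HYAL2 cleaves long chains at the cell surface and HYAL1 degrades fragments in lysosomes. TGF-β drives these epithelial cells through an epithelial-mesenchymal transition (EMT), a change of state in which hyaluronan and its receptor have been much studied.

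Between 4297832 and 13574397 reads per library were counted on genes, and the smallest total was an untreated library of the genotype labelled KO. *Lnc-Nr6a1* itself, listed as Gm13507 (ENSMUSG00000085201.1, chromosome 2, 38678777 to 38707890), had 3 and 14 counts in the control group and 11 and 7 in the untreated libraries labelled KO, so it went against that label. It had 25 and 35 counts in treated control cells and none in the treated libraries labelled KO. Its counts were summed over 3 annotated exon blocks, of which the deletion reaches the first, along with the promoter. The sums do not show which block held the reads. Why the untreated and treated libraries labelled KO differed was not tested. Because of the untreated counts the depleted groups are called libraries labelled KO, and each direction between genotypes given here rests on the labels. Of 8 epithelial markers, *Krt8*, *Krt18*, *Krt19* and *Cdh1* were abundant. *Epcam* was nearly absent, *Cldn3* had no counts and *Krt7* had group means of 0.560 to 1.35 CPM (counts scaled to a common library total). *Cldn4* had at most 1 count in any untreated library. It had 126 and 13 counts in treated control cells and 30 and 162 in the treated libraries labelled KO, and was called in neither genotype. The summed level of the 8 was 5873 to 5951 CPM in the control group and 6632 to 6970 CPM in the untreated libraries labelled KO. In the treated libraries of both genotypes it was 7939 to 10940 CPM. After TGF-β in control cells *Krt8* and *Krt18* were called higher, by 0.65 and 0.96 on the log2 scale, whereas *Krt19* and *Cdh1*, with changes of -0.084 and 0.063, were not called. Between treated genotypes *Cdh1* was called higher in libraries labelled KO, by 0.61 (edgeR's adjusted p = 0.0433). *Krt19* was 0.44 higher there (edgeR's adjusted p = 0.0355), too small a change to be called. The summed level of 5 fibroblast markers was 0.965 to 1.83 CPM in control cells and 2.72 to 4.44 CPM after TGF-β. In libraries labelled KO it was 0.797 to 4.63 CPM untreated and 4.61 to 4.73 CPM treated, which overlapped. That of 3 endothelial markers was at or below 0.362 CPM in control cells and 0.562 to 0.847 CPM after TGF-β. For the label KO it was 0 untreated and 0.326 to 0.556 CPM treated. That of 3 leukocyte markers was at or below 0.212 CPM in all groups. The part of all these markers in the results was not tested.

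A gene was tested where it reached 1.13 CPM, equal to 10 counts at the median depth, in at least 2 libraries, which left 13028 genes. Of the 9 hyaluronan genes, 7 were tested. *Cd44*, *Vcan*, *Hyal1* and *Hyal2* reached this level in every library, whereas *Has2* reached it in 2 treated control libraries and 1 treated library labelled KO, *Tnfaip6* in the 4 treated libraries, and *Acan* in the 2 untreated control libraries alone. These 3 genes therefore entered the test through the groups in which they were high, and counts over the tested genes are descriptions. *Has1* reached it in no library and *Has3* in 1, a treated library labelled KO. A gene was called where edgeR's Benjamini-Hochberg adjusted p over all 13028 genes was below 0.05 and the log2 fold change exceeded 0.5 in size. Lower bounds of folds against groups without counts set the mean of the other group against a floor of 3 counts per library. They cover counting error of the group without counts only, and not that of the other group. Where 1 library of a group was left out, the other groups supplied the spread, and the remaining library was assumed to vary like them. In bulk RNA, fewer cells expressing a gene and less RNA per cell cannot be told apart.

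**Figure D1:**
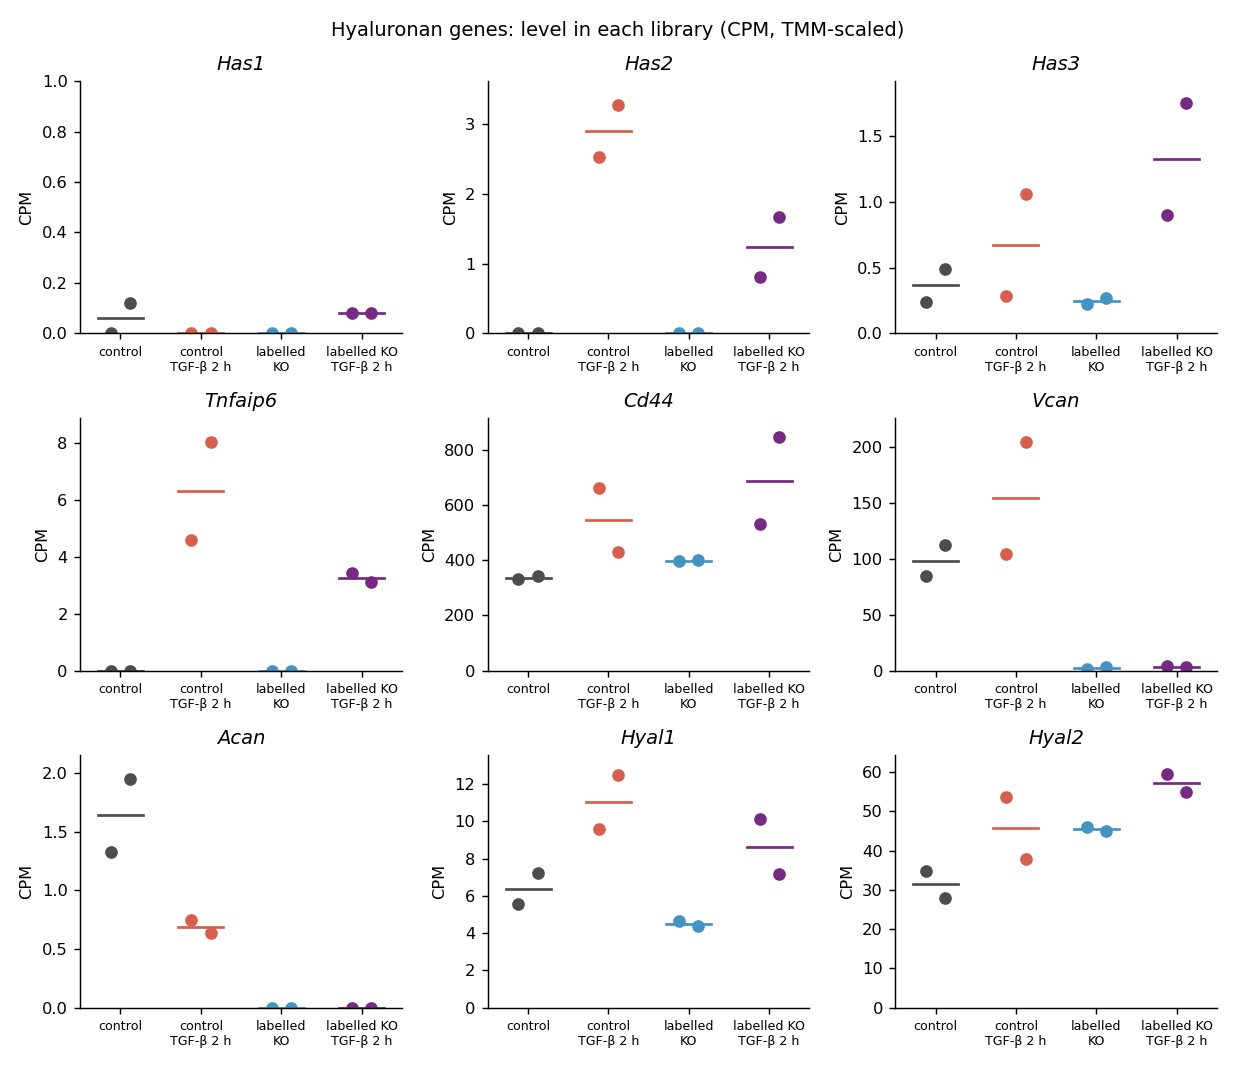
Level of each of the 9 hyaluronan genes in CPM after TMM scaling (vertical axes, linear, each from 0) in the 4 groups, with a point for each library and a line at the group mean. *Has2* and *Tnfaip6* sit at 0 in all untreated libraries, *Vcan* is between 84.3 and 205 CPM in the 4 libraries of the control genotype and between 1.32 and 4.16 CPM in libraries labelled KO, and *Acan* is at 0 in all 4 of the latter.

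On a scale per length of annotated exons (RPKM, CPM per kilobase), *Cd44* was the most abundant of these transcripts in each group. Its level was 49.3 ± 1.38 RPKM (SD, n = 2) in control cells, followed by *Hyal2* at 16.6 ± 2.53, *Vcan* at 6.79 ± 1.36, *Hyal1* at 1.68 ± 0.307 and *Acan* at 0.223 ± 0.0602. The first 5 places were separated by more than the spread between libraries, and *Has3* and *Has1* below them were not separated from each other. In treated control cells the order of the first 3 was kept, with 79.7 ± 23.8 RPKM for *Cd44*, 24.1 ± 5.91 for *Hyal2* and 10.7 ± 4.93 for *Vcan*, and *Tnfaip6* entered at 3.69 ± 1.43, not separated from *Hyal1* at 2.90 ± 0.545. *Has2* was at 0.686 ± 0.125 RPKM. In the treated libraries labelled KO, *Vcan* stood at 0.254 ± 0.0478 RPKM, within the spread of *Has2* at 0.293 ± 0.142 and of *Has3* at 0.224 ± 0.102. In that group *Cd44* was at 100.4 ± 32.6 RPKM and *Hyal2* at 30.3 ± 1.74, while *Hyal1* at 2.27 ± 0.549 was not separated from *Tnfaip6* at 1.91 ± 0.134.

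Of all reads counted on the 9 genes, *Cd44* took 61.6% to 79.0% in control-genotype libraries and 87.0% to 92.2% in libraries labelled KO. *Vcan* took 12.5% to 29.4% and 0.295% to 0.682% respectively, with a 95% Wilson interval of 0.135% to 0.642% at the lowest share, which covers counting error only. As shares of the summed RPKM, *Cd44* held 59.3% to 70.0% in control-genotype libraries and 67.7% to 78.6% in libraries labelled KO, which overlapped, and *Vcan* held 5.22% to 13.4% and 0.109% to 0.252%, which did not.

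The first question was how 2 h of TGF-β changed these genes in each genotype. In control cells, *Has2* and *Tnfaip6* rose from no counts, and the other 5 tested genes did not pass the test. Thus 2 of 7 tested genes were called, both higher, where 9.16% of all tested genes were called and 4.69% were called higher. Both had passed the filter only through treated libraries, so the counts in this paragraph are descriptions. In libraries labelled KO 1 of 7, *Tnfaip6*, was called, where 6.82% of all tested genes were called and 4.25% were called higher. *Acan* had no counts in either of these groups and could not be called, which left 6 genes.

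*Has2* (ENSMUSG00000022367.7, chromosome 15, 56497182 to 56526094, minus strand of NCBIM37, the mouse build also known as mm9) encodes the synthase that makes most hyaluronan in many mesenchymal cells. It had 0 and 0 counts in control cells, 27 and 31 in treated control cells, 0 and 0 in the untreated libraries labelled KO, and 10 and 21 in the treated ones. Every treated library thus held *Has2* reads and no untreated library did. The treated levels were 2.53 and 3.28 CPM in the control group and 0.815 and 1.67 CPM in libraries labelled KO, without overlap, as for 55.8% of all tested genes between these groups. After TGF-β, *Has2* was at least 7.98-fold higher in control cells, with a Benjamini-Hochberg adjusted p of 0.0135 in edgeR. In libraries labelled KO it was at least 2.34-fold higher, which did not pass (edgeR's adjusted p = 0.0507), and DESeq2 called it at an adjusted p of 0.0284. It also passed in edgeR without either treated control library or without the first treated library labelled KO (adjusted p of 0.0470 to 0.0495). The call in control cells was lost when either untreated control library was left out (edgeR's adjusted p of 0.0986 and 0.0736) and when all libraries were thinned to the smallest total (edgeR's adjusted p = 0.0641).

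The annotated antisense transcript *Has2as*, listed as Has2os in newer annotations, lies on the opposite strand and shares 182 of the 4237 exonic bases of *Has2*. It had 0 and 2 counts in control cells, 13 and 5 after TGF-β, 0 and 0 in the untreated libraries labelled KO and 3 and 4 in the treated ones, and was too low to be tested. Whether reads were counted by strand is not given in the sources used here, so reads from the shared bases could belong to either transcript.

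*Has1* (ENSMUSG00000003665.6, chromosome 17, 17980292 to 17992152) had at most 1 count in any library. *Has3* (ENSMUSG00000031910.7, chromosome 8, 109394142 to 109406802), whose enzyme makes shorter chains, had 2 and 4 counts in control cells, 3 and 10 after TGF-β, 1 and 2 in the untreated libraries labelled KO and 11 and 22 in the treated ones. Its levels were 0.897 and 1.75 CPM in the treated libraries labelled KO, above the 0.220 and 0.266 CPM of the untreated ones, which were under the 3-count limit of 0.661 and 0.399 CPM. In control cells the treated libraries, at 0.281 and 1.06 CPM, overlapped the untreated ones, at 0.241 and 0.488 CPM. Neither gene was tested.

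*Tnfaip6* (ENSMUSG00000053475.5, chromosome 2, 51893529 to 51912206, plus strand) had 49 and 76 counts in treated control cells and 42 and 39 in the treated libraries labelled KO, and none in the 4 untreated libraries. In CPM these were 4.59 and 8.04 in the control group and 3.42 and 3.10 in libraries labelled KO, so the treated groups did not overlap, as for 55.8% of all tested genes. In control cells *Tnfaip6* rose at least 17.4-fold (edgeR's adjusted p = 0.00366). A rise of at least 6.15-fold also passed in libraries labelled KO (edgeR's adjusted p = 0.0111), but not when either untreated library of that genotype was left out (edgeR's adjusted p of 0.0606 and 0.0971).

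Promoter sequences, 300 bases around each start site and mostly upstream of it, were taken from RefSeq on the build GRCm38.p6, where 7 of the 9 genes matched and *Has2* and *Has3* did not. The promoter of *Tnfaip6* is shown because the gene went from no reads to detection in both genotypes, and that of *Vcan* because it was called in both comparisons of the genotypes. Capitals mark matches, on either strand, to the AP-1 motif TGANTCA and to the SMAD motif CAGAC, the letters bound by transcription factors that act in TGF-β signalling. The windows are chr2:52037863-52038162 on the plus strand and chr13:89742463-89742762 on the minus strand, each written in the direction of transcription.
Tnfaip6: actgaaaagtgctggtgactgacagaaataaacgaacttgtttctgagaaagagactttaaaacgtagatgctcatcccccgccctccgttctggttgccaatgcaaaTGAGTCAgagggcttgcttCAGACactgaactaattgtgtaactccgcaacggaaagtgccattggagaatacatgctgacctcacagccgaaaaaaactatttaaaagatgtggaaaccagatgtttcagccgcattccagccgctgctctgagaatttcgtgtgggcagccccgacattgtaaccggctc
Vcan: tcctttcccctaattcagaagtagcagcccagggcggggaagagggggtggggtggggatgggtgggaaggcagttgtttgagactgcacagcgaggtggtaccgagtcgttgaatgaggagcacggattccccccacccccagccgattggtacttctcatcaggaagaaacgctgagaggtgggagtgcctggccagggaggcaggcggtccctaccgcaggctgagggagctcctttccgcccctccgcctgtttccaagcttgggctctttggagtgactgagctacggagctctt

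*Tnfaip6* held TGAGTCA at -142 from its start site and CAGAC at -123, while the *Vcan* window held neither. Among 32851 promoters of this length, 7.81% held the AP-1 letters and 49.6% the SMAD letters. The *Has1* promoter held CAGAC at -94 and -18, that of *Hyal1* held its reverse complement GTCTG at -117, and those of *Cd44*, *Acan* and *Hyal2* held neither motif. A match to these letters is a description of the sequence and not a bound site.

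*Cd44* (ENSMUSG00000005087.10, chromosome 2, 102651298 to 102741822, minus strand) encodes the main hyaluronan receptor, whose splice forms change during EMT and are not separated by gene-level counts. Its level was 331 and 344 CPM in the control group and 661 and 430 CPM after TGF-β. With the label KO it was 396 and 401 CPM untreated and 530 and 846 CPM treated. Both treated groups lay above their untreated groups without overlap, as did 53.7% of all tested genes in either direction in the control group and 56.6% in libraries labelled KO. The log2 fold changes were 0.69 (SE 0.24) in the control group and 0.79 (SE 0.24) in libraries labelled KO, and neither passed (edgeR's adjusted p of 0.104 and 0.0885). DESeq2 called both, at adjusted p of 0.0397 and 0.0152. Without the second treated control library the value in control cells was 0.95 (edgeR's adjusted p = 0.0408), and without the first it was 0.35 (adjusted p = 0.349). In libraries labelled KO edgeR called *Cd44* without the first treated library of that genotype (1.09, adjusted p = 0.0222) or without either treated control library (0.80, adjusted p of 0.0317 and 0.0323), while without the second treated library of that genotype the value was 0.42 (adjusted p = 0.447).

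Both hyaluronidases had higher means after TGF-β and neither passed the test in either genotype. *Hyal1* (ENSMUSG00000010051.7, chromosome 9, 107479258 to 107485174) was at 5.55 and 7.20 CPM in control cells, 9.56 and 12.5 CPM after TGF-β, 4.63 and 4.39 CPM in the untreated libraries labelled KO and 10.1 and 7.15 CPM in the treated ones. Its log2 fold changes after TGF-β were 0.79 (SE 0.30) in the control group and 0.94 (SE 0.32) in libraries labelled KO, with edgeR's adjusted p of 0.134 and 0.123. *Hyal1* shares 1947 of its 3804 exonic bases with *Nat6* and 159 with *Hyal3* on the same strand, so its counts are uncertain by what the counting gave to those genes.

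*Hyal2* (ENSMUSG00000010047.7, chromosome 9, 107471448 to 107475107) was at 34.9 and 28.1 CPM in the control group and 53.6 and 37.8 CPM after TGF-β, a log2 change of 0.54 (SE 0.20, edgeR's adjusted p = 0.122). Libraries labelled KO held 46.1 and 44.9 CPM untreated and 59.7 and 55.0 CPM treated, a log2 change of 0.33 (SE 0.20, edgeR's adjusted p = 0.363). Without the second treated control library the value in control cells was 0.75 and passed (edgeR's adjusted p = 0.0428), and without the first it was 0.26 (adjusted p = 0.393). Both untreated libraries labelled KO lay above both untreated control libraries, where 51.9% of all tested genes did not overlap, in either direction. The difference between genotypes did not pass in untreated cells (log2 fold change 0.53, SE 0.20, edgeR's adjusted p = 0.257) or after TGF-β (0.33, SE 0.20, edgeR's adjusted p = 0.286).

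The second question was how the libraries labelled KO differed from control cells. Between untreated groups 1 of 7 tested genes, *Vcan*, was called, lower in libraries labelled KO, where 1.83% of all tested genes were called and 0.798% were called lower. *Has2* and *Tnfaip6* had no counts in either untreated group and could not be called, which left 5 genes. Between treated groups *Vcan* and *Acan* were called, both lower, which is 2 of 7 where 15.0% of all tested genes were called and 6.57% were called lower. *Vcan* was thus called in both comparisons of the genotypes in edgeR, and *Acan* in the treated one alone. *Acan* had passed the filter only through the 2 untreated control libraries.

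*Vcan* (ENSMUSG00000021614.9, chromosome 13, 89794915 to 89882117, minus strand) encodes versican, a large chondroitin sulphate proteoglycan that binds hyaluronan and loosens cell contacts. Its counts were 699 and 918 in control cells, 1112 and 1938 after TGF-β, 6 and 23 in the untreated libraries labelled KO, and 51 and 40 in the treated ones. In CPM the 4 control-genotype libraries held 84.3, 112, 104 and 205, and the 4 libraries labelled KO 1.32, 3.06, 4.16 and 3.18. The lowest library of control cells was far above the highest labelled KO. *Vcan* was 41.5-fold lower in the untreated libraries labelled KO (log2 fold change -5.37, SE 0.44, edgeR's adjusted p = 7.10e-04) and 42.0-fold lower in the treated ones (-5.39, SE 0.40, adjusted p = 2.56e-04). Both calls held in each alternative run, with log2 fold changes of -6.20 to -5.00 and -5.80 to -4.71.

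TGF-β left *Vcan* without a call in either genotype. Its log2 change was 0.65 (SE 0.31, edgeR's adjusted p = 0.212) in control cells, where 1 treated library, at 104 CPM, lay below the untreated library at 112 CPM. The value in libraries labelled KO was 0.64 (SE 0.51, edgeR's adjusted p = 0.506), and 0.26 to 1.46 across the alternative runs, without a call. Without the first treated control library the value in control cells was 1.06 and passed (edgeR's adjusted p = 0.0266), and without the second it was 0.062 (adjusted p = 0.904).

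*Acan* (ENSMUSG00000030607.6, chromosome 7, 86198369 to 86259985, plus strand) encodes aggrecan, the main hyaluronan-binding proteoglycan of cartilage. It was rare in control cells, with 11 and 16 counts untreated and 8 and 6 after TGF-β, or 1.33 and 1.95 CPM against 0.750 and 0.635 CPM. No library labelled KO held a count. The untreated control libraries did not overlap the treated ones, as for 53.7% of all tested genes, and the log2 fold change of -1.22 (SE 0.66) did not pass (edgeR's adjusted p = 0.280). *Acan* was at least 3.09-fold lower in the untreated libraries labelled KO, without a call (edgeR's adjusted p = 0.0790, against 0.0129 with no filter on low counts, 0.0408 in limma-voom and 0.0278 with only the libraries of the comparison, each of which called it), and at least 2.87-fold lower in the treated ones (edgeR's adjusted p = 0.0301). The latter call was lost with only the libraries of the comparison (edgeR's adjusted p = 0.0904), with a replicate block (adjusted p = 0.0567) and after thinning (adjusted p = 0.165). It was also lost in 5 of the 8 fits that left out 1 library. These left out either untreated control library, the second treated control library or either treated library labelled KO.

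**Figure D2:**
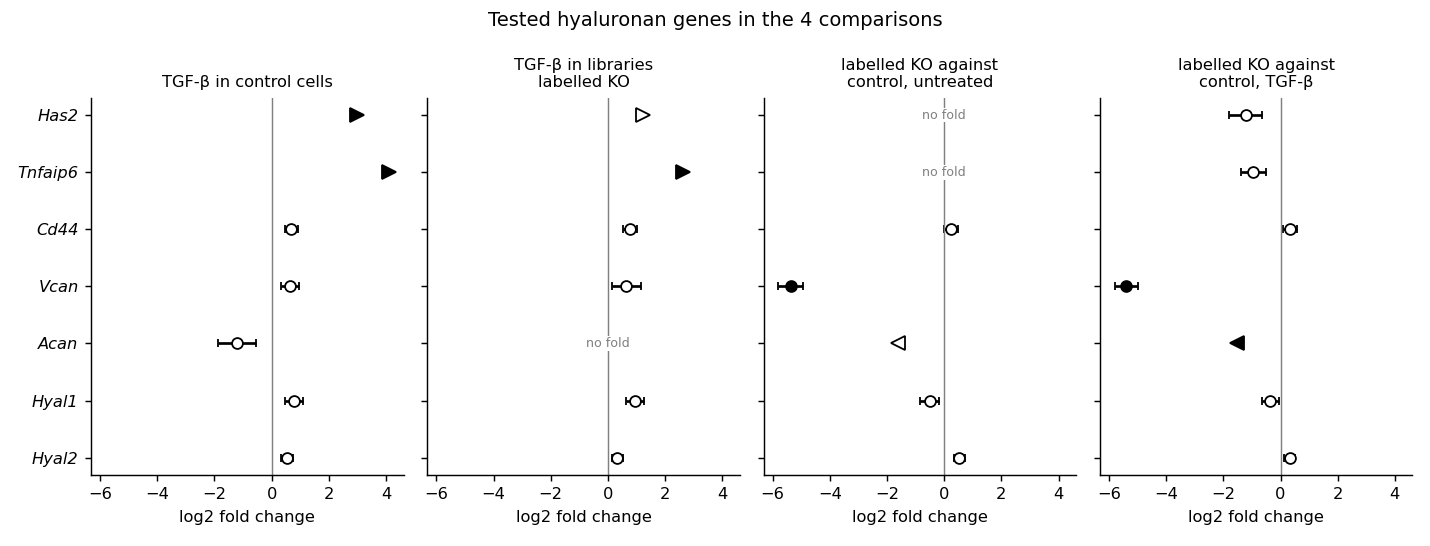
Log2 fold change of each tested hyaluronan gene (horizontal axes) in the 4 comparisons, with bars of 1 SE, filled symbols for called genes and triangles for lower bounds where 1 group had no counts. *Vcan* stands at -5.37 and -5.39 in both genotype comparisons, while the called changes after TGF-β are the bounds of *Has2* and *Tnfaip6*.

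Between genotypes the remaining genes were not called. After TGF-β, the fold changes of *Has2* (log2 -1.21, SE 0.58) and *Tnfaip6* (log2 -0.95, SE 0.45) in libraries labelled KO against control cells had an edgeR adjusted p of 0.196 each. Across the alternative runs they were -1.81 to -0.78 and -1.30 to -0.48, without a call. *Cd44* differed by 0.24 (SE 0.24, edgeR's adjusted p = 0.692) in untreated and 0.33 (SE 0.24, edgeR's adjusted p = 0.376) in treated cells, where the libraries of the 2 genotypes overlapped, and without the second treated library labelled KO the latter was -0.036. For *Hyal1* the values were -0.50 (SE 0.33, edgeR's adjusted p = 0.530) and -0.35 (SE 0.29, edgeR's adjusted p = 0.448).

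Whether the response to TGF-β itself differed between genotypes was tested as an interaction. No hyaluronan gene and 0.0% of all tested genes passed, with 0 of 7 and 1134 of 13028 genes at an unadjusted p below 0.05 in edgeR. DESeq2 called 0 of the 7 and 25 of all genes, and limma-voom called none of the 7 and 0 of all genes. The difference of log2 fold changes, labelled KO minus control, was 0.092 (SE 0.34) for *Cd44*, -0.018 (SE 0.71) for *Vcan*, 0.15 (SE 0.44) for *Hyal1* and -0.21 (SE 0.28) for *Hyal2*. With groups at 0 counts it could not be estimated for *Has2*, *Tnfaip6* and *Acan*.

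The surroundings of the proteoglycan genes were read from the annotation, by taking the 3 nearest tested genes on each side. Of the 6 around *Vcan* none was called between genotypes, untreated or treated, where 1.83% and 15.0% of all tested genes were called. Their log2 fold changes lay between -0.66 and 0.83. The long non-coding RNA *Gm4117*, which starts 3.05 kb downstream of the *Vcan* start inside the gene on the opposite strand and shares no exonic base with it, had 83 and 126 counts in the control group and 48 and 78 in the untreated libraries labelled KO. Its log2 fold change between genotypes was -0.28 (edgeR's adjusted p = 0.787) against the -5.37 of *Vcan*. After TGF-β in control cells *Gm4117* fell by 1.49 on the log2 scale (SE 0.39, edgeR's adjusted p = 0.0469), to 36 and 54 counts.

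Around *Acan* none of the 6 was called in untreated cells, where 1.83% of all tested genes were called. After TGF-β, where 15.0% of all tested genes were called, 2 of the 6 were called. *Mfge8* was 0.53 higher (SE 0.15, edgeR's adjusted p = 0.0385) and *Fanci* 0.86 lower on the log2 scale in libraries labelled KO. The median log2 fold change of the tested genes on chromosome 7, which carries *Acan*, was -0.25 in untreated and -0.14 in treated cells, against 0.018 and -0.012 over all tested genes. On chromosome 13, which carries *Vcan*, it was -0.014 and -0.15. The part of these chromosome-wide shifts in the results was not tested.

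**Figure D3:**
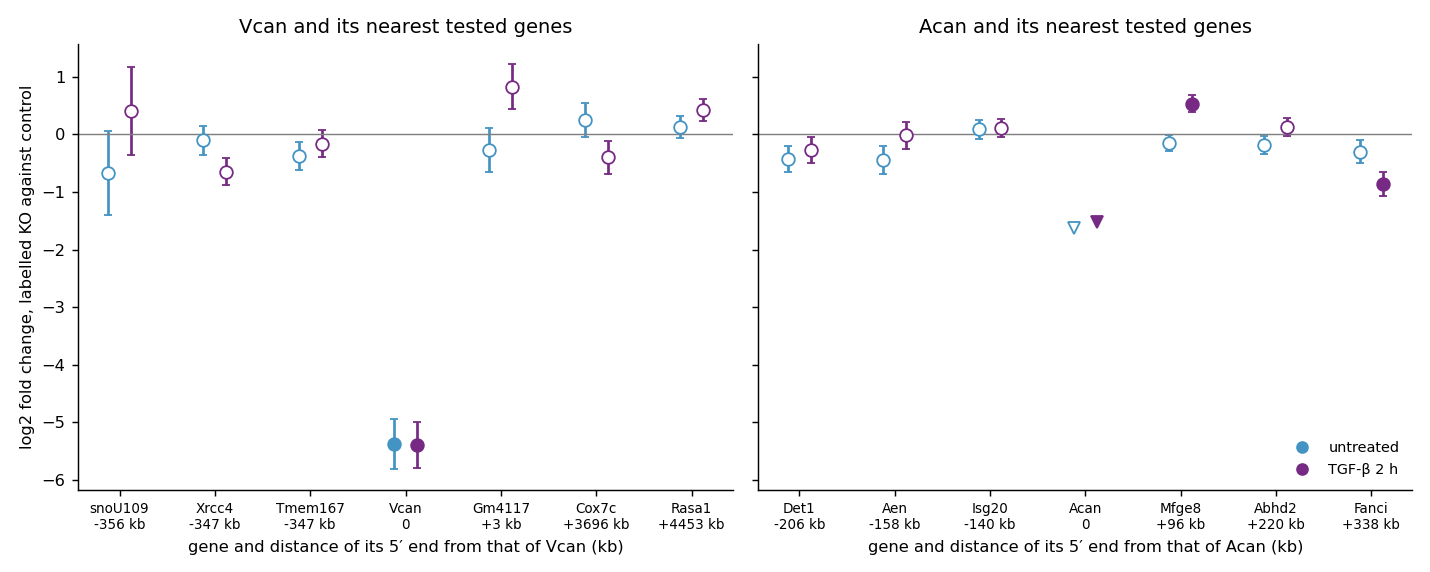
Log2 fold change of the libraries labelled KO against control cells (vertical axis) for *Vcan*, *Acan* and the 3 nearest tested genes on each side, with the distance of each gene's 5′ end in kb along the horizontal axis (order, not scale), bars of 1 SE, filled symbols for called genes and triangles for lower bounds. *Vcan* lies below -5 in untreated and treated cells while its 6 neighbours lie between -0.66 and 0.83.

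Other genes of the pathway were taken from lists of precursor synthesis, further hyaluronidases, receptors, binding proteins, proteases of versican and aggrecan, and CD44 partners. Of 57 names, 56 were matched to the table (1 gene was listed under 2 names), 29 were tested and 13 had no count in any library, among them the link protein genes *Hapln1* and *Hapln2*, the receptor *Layn*, the pentraxin *Ptx3* and the splicing factor *Esrp1*. After TGF-β, 5 of 29 were called higher and 1 lower in control cells, and 6 higher and 0 lower in libraries labelled KO, with medians of 0.097 and 0.13 beside 0.016 and 0.000 over all tested genes. The shares of all tested genes called were 9.16% (4.69% higher) and 6.82% (4.25% higher). In each genotype all of these calls were lost when either of its untreated libraries was left out. This holds for the calls after TGF-β given below for *Ugdh*, *Uap1*, *Hk2* and *Tmem2*. It also holds for those of *Hk1* and *Itih2* in control cells and of *Msn* and *Mmp14* in libraries labelled KO. Between untreated genotypes edgeR called none of the 29, with 8 at an unadjusted p below 0.05, where DESeq2 called 3 and limma-voom 0. Of all 13028 genes in this comparison, 1.83% were called and 1936 had an unadjusted p below 0.05 in edgeR, and DESeq2 called 428. Between treated genotypes 8 were called higher and 3 lower in libraries labelled KO, where 15.0% of all tested genes were called, and the median was 0.22 beside -0.012 over all tested genes. These 11 calls became 3 when only the libraries of the comparison were fitted and 6 after thinning. Some of them were also lost in every fit that left out 1 library.

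Of 10 tested genes that feed hyaluronan synthesis, TGF-β in control cells gave 3 called higher and 1 called lower. Their median was 0.20 beside 0.016 over all tested genes, of which 9.16% were called and 4.69% were called higher. In libraries labelled KO 3 were called higher and 0 lower, with a median of 0.12 beside 0.000. There 6.82% of all tested genes were called and 4.25% were called higher. *Ugdh*, which makes UDP-glucuronic acid, was at 460 and 394 CPM in the control group and 639 and 872 CPM after TGF-β, a rise of 0.82 on the log2 scale (SE 0.17, edgeR's adjusted p = 0.0209). *Ugdh* in libraries labelled KO went from 422 and 456 to 766 and 691 CPM, a rise of 0.73 (SE 0.17, edgeR's adjusted p = 0.0352). Treated and untreated libraries did not overlap in either genotype, as for 53.7% of all tested genes in the control genotype and 56.6% in the other.

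*Uap1*, which makes UDP-N-acetylglucosamine, was at 51.3 and 46.0 CPM in the control group and 98.3 and 98.5 CPM after TGF-β, a rise of 1.02 (SE 0.17, edgeR's adjusted p = 0.00871). Its rise in libraries labelled KO was 0.70 (SE 0.17, edgeR's adjusted p = 0.0424). Of the tested genes of these sugar donors, *Ugp2*, *Gfpt1*, *Gnpnat1* and *Pgm3*, named after their values were seen, were not called after TGF-β in either genotype, with log2 changes of 0.42, -0.62, 0.15 and 0.24 in control cells.

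The hexokinases, which trap glucose in the cell, differed. *Hk2* rose by 1.65 (SE 0.41, edgeR's adjusted p = 0.0377) in the control group and by 2.73 (SE 0.43, edgeR's adjusted p = 0.00635) in libraries labelled KO, where the treated libraries held 172 and 446 CPM. *Hk1* fell from 142 and 131 CPM to 71.8 and 94.6 CPM in control cells, a log2 change of -0.72 (SE 0.16, edgeR's adjusted p = 0.0259), and was at 213 and 204 CPM untreated and 216 and 209 CPM treated in libraries labelled KO. After TGF-β *Hk1* was 1.35 higher in libraries labelled KO than in control cells (SE 0.16, edgeR's adjusted p = 0.00163).

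Among 5 tested genes of degradation, *Tmem2*, a cell surface protein linked to hyaluronan breakdown, rose after TGF-β by 1.15 (SE 0.28, edgeR's adjusted p = 0.0332) in the control group and by 1.34 (SE 0.28, edgeR's adjusted p = 0.0222) in libraries labelled KO. *Cemip*, listed as 9930013L23Rik which encodes a hyaluronan-binding protein needed for its breakdown in fibroblasts, was at 4.78 and 7.41 CPM in treated control cells and 21.4 and 10.3 CPM in the treated libraries labelled KO, 1.38 higher (SE 0.38, edgeR's adjusted p = 0.0388). *Gusb*, the lysosomal β-glucuronidase, was 0.89 higher in the same comparison (SE 0.14, edgeR's adjusted p = 0.00497).

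Of 4 tested other binding proteins, 2 were called lower in the treated libraries labelled KO than in treated control cells. The same held for 1 of 2 tested other receptors, where 6.57% of all tested genes were called lower. *Itih2*, a heavy chain that TSG-6 transfers, rose from 2.29 and 3.42 CPM to 10.4 and 7.62 CPM after TGF-β in control cells (1.66, SE 0.38, edgeR's adjusted p = 0.0285). Libraries labelled KO held 5.73 and 3.72 CPM untreated and 3.02 and 3.42 CPM treated. The difference of the responses was -2.18 (SE 0.54) and did not pass over all genes (edgeR's adjusted p = 0.430).

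*Habp2*, a secreted protease that binds hyaluronan, was at 41.0 and 61 CPM in treated control cells and 15.9 and 16.1 CPM in the treated libraries labelled KO, 1.67 lower on the log2 scale (SE 0.23, edgeR's adjusted p = 0.00300). *Hmmr*, a hyaluronan receptor that also acts at the mitotic spindle, was at 163 and 248 CPM against 133 and 73.1 CPM (log2 fold change -0.996, SE 0.27, edgeR's adjusted p = 0.0389). Untreated, *Habp2* missed the threshold with a log2 change of -1.09 (SE 0.23, edgeR's adjusted p = 0.0549).

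Only 2 of 7 proteases of versican and aggrecan were tested. *Adamts15*, which can cleave versican, was at 0.375 and 1.69 CPM in treated control cells and 6.93 and 3.89 CPM in the treated libraries labelled KO, 2.40 higher (SE 0.61, edgeR's adjusted p = 0.0301). *Adamts1*, the more abundant protease, was at 16.2 and 16.4 CPM in the control group and 8.82 and 8.64 CPM in the untreated libraries labelled KO, a difference of -0.90 (SE 0.32) that did not pass (edgeR's adjusted p = 0.229).

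Of 6 tested CD44 partners, 4 were called higher and 0 lower in libraries labelled KO between treated genotypes, with a median of 0.58 beside -0.012. Of all tested genes, 15.0% were called there in either direction and 6.57% were called lower. *Msn*, which ties the CD44 tail to actin, was at 828 and 895 CPM in treated control cells and 1218 and 1407 CPM in the treated libraries labelled KO (0.61, SE 0.13, edgeR's adjusted p = 0.0157). *Mmp14*, a membrane protease that can shed CD44, was at 86.5 and 98.8 CPM against 147 and 149.7 CPM (0.68, SE 0.14, edgeR's adjusted p = 0.0145). *Ezr*, of the same family as *Msn*, was 0.55 higher (SE 0.16, edgeR's adjusted p = 0.0438), and *Msn* and *Mmp14* were also called higher after TGF-β in libraries labelled KO, by 0.80 (SE 0.13, edgeR's adjusted p = 0.00786) and 0.66 (SE 0.14, edgeR's adjusted p = 0.0250).

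**Figure D4:**
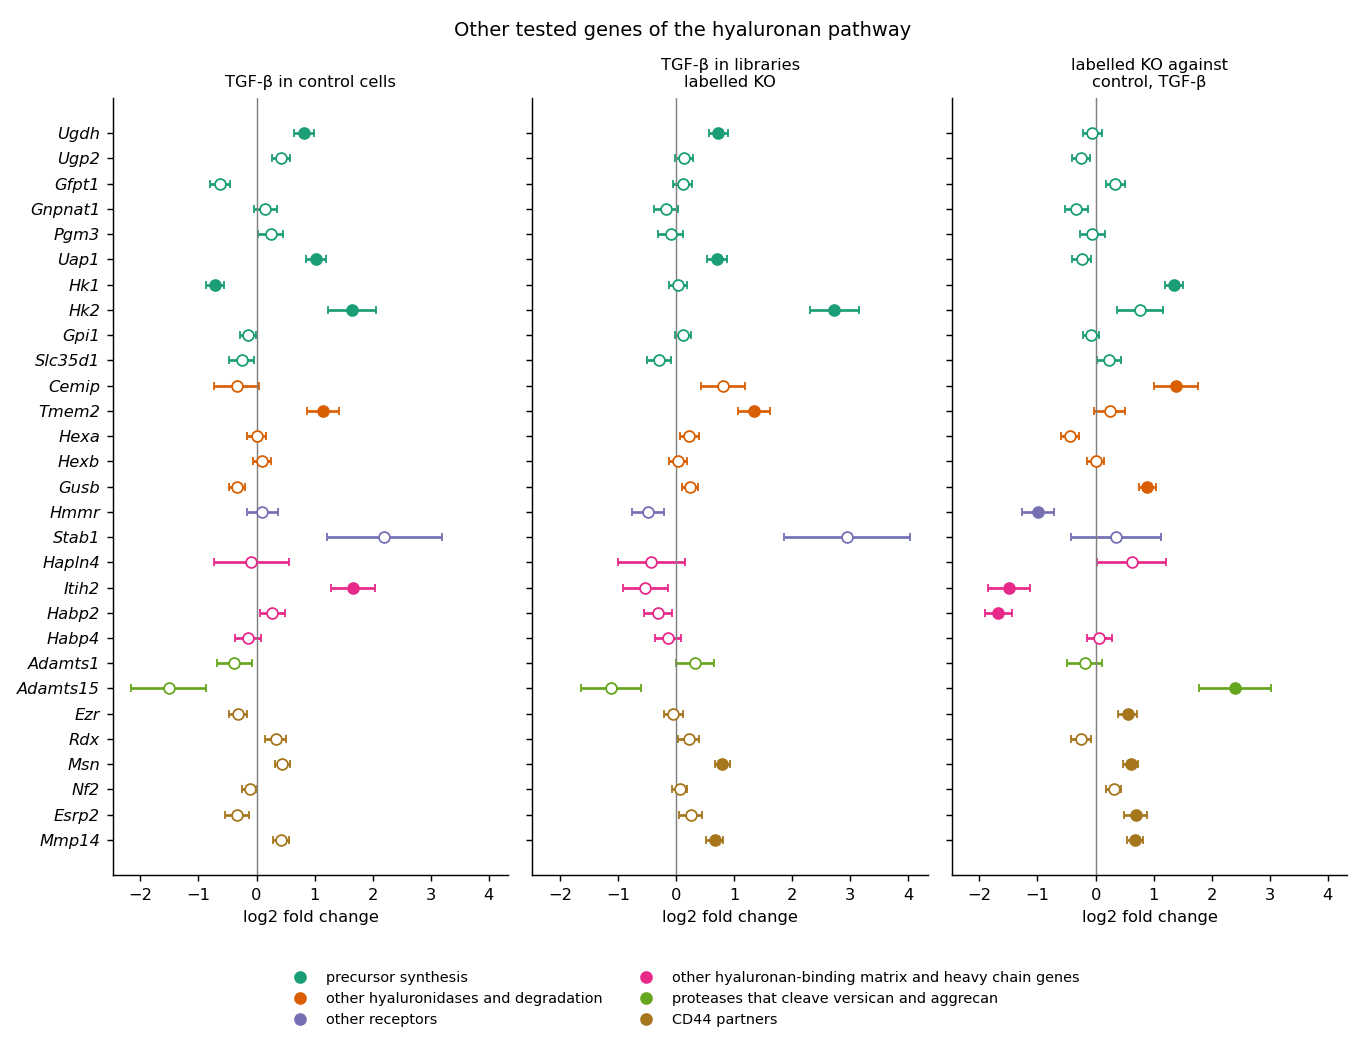
Log2 fold change (horizontal axes) of 29 tested pathway genes after TGF-β in control cells, after TGF-β in libraries labelled KO and between treated genotypes, with bars of 1 SE, filled symbols for called genes and a colour for each list. *Ugdh*, *Uap1*, *Hk2* and *Tmem2* are filled on the right in both treatment panels, and the treated genotype panel has 8 genes filled on the right and 3 on the left.

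The genes most like each called member over the 8 libraries were found by Pearson's r of log2 CPM, which here follows the 4 groups and is given as a description. *Tnfaip6* was closest to *Dhx32* (0.992), *Utp14b* (0.988) and *Nt5e* (0.988), the last with group means of 5.95, 52.2, 6.94 and 47.7 CPM in control, treated control, untreated and treated labelled KO libraries. *Has2* was closest to *Epc2* (0.991) and *Ppp2cb* (0.990), which were expressed in all groups, and its r with *Tnfaip6* was 0.983. *Vcan* was closest to *Fam65b* (0.992), with group means of 9.35, 8.50, 0.376 and 0.484 CPM, then *Sgk3* (0.991) and *Fubp1* (0.990). *Acan* was closest to *Ptpn6* (0.984), *Casc4* (0.980) and *Srsf11* (0.979), and *Casc4* also had no counts in libraries labelled KO.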

How the data were processed

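The deposited table held raw read counts of 37310 genes, made by the authors from RNA sequencing of 8 libraries, with 2 in each of 4 groups. The submitters' processing notes name HISAT2, limma and mm10. The study's methods name another aligner, DESeq2, and both mm10 and mm9. The gene identifiers of the table matched those of the GENCODE vM1 annotation of NCBIM37. The counting program, its strand setting and its treatment of shared exons are not given in the sources used here, and unstranded counting would mix overlapping genes. The study's methods call the 2 libraries of a group biological replicates. The median absolute log2 difference between them was 0.20 to 0.33.

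Genes with low counts were removed with filterByExpr. Libraries were scaled by TMM and fitted together in 1 model of 4 groups with edgeR 4.0.16 (quasi-likelihood test, R 4.3.3), and p-values were adjusted by Benjamini-Hochberg over 13028 genes. The study used DESeq2 and thresholds of 0.05 and 0.5, which were kept. DESeq2 1.42.0, limma 3.58.1 (voom), RLE factors, no filter, a replicate block, the libraries of each comparison alone, thinning to 4297832 counts, no fold threshold and leaving out each library were the alternatives. The SE of a log2 fold change was taken from its F statistic. CPM and RPKM used TMM-scaled totals and annotated exonic length. The model was tested on simulated data.

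The genes and lists were chosen with earlier results of these data known. All 9 hyaluronan genes are named, and of the other lists up to 3 genes called in any test per list, by smallest adjusted p, and the most abundant tested gene. For likeness, up to 3 genes per called hyaluronan gene are named by Pearson's r of log2 CPM, and 1 result of this kind is not reported here.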

Additional observations from a re-analysis of the deposited data

How the results depend on the processing

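Of 485 values under alternative settings, 430 kept their direction and side of the threshold, and 15 of 29 fold changes did so throughout, among them *Vcan* between genotypes. Hyaluronan genes called after TGF-β in control cells numbered 2, against 4 with no filter on low counts, 1 after thinning and 1 to 4 when a library was left out. In libraries labelled KO they numbered 1, against 3 with no filter, 3 in DESeq2, 2 in limma-voom and 0 to 3 with a library left out. Between untreated genotypes 1 became 2, *Acan* being added, with no filter, with limma-voom and with only the libraries of the comparison, and was 1 in all 8 fits that left out a library. Between treated genotypes 2 became 1 with the replicate block, which ended the call of *Acan* (adjusted p = 0.0567), with only those libraries and after thinning, and 1 to 2 with a library left out. The cause was not tested, except that thinning and leaving out a library remove reads.

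Pathway genes called after TGF-β numbered 6 in control cells, against 3 with the replicate block, 3 with only the libraries of the comparison and 0 to 6 with a library left out. In libraries labelled KO they numbered 6, and 0 to 6 with a library left out. The calls in each genotype fell to 0 without either untreated library of that genotype. Between untreated genotypes 0 became 3 with no filter, 3 in DESeq2, 5 with only those libraries and 0 to 4 with a library left out. Between treated genotypes 11 became 3 with only those libraries, 6 after thinning and 4 to 8 with a library left out, the lowest without the second treated library labelled KO. The interaction, with 0, had 2 without a filter.

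Some directions turned, none of them called. The interaction of *Vcan* was 0.055 with no filter, 0.013 in DESeq2, 0.11 in limma-voom, 0.13 with the replicate block, 0.12 with the exchanged block, 0.63 after thinning and -0.42 to 0.81 with a library left out. That of *Hyal1* was -0.042 after thinning and -0.096 to 0.40 with a library left out. With a library left out, that of *Cd44* was -0.26 to 0.45 and that of *Hyal2* -0.40 to 0.084. *Cd44* between treated genotypes was -0.036 to 0.67, turning without the second treated library labelled KO.

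Same-numbered libraries did not deviate together throughout, with correlations of 0.30, -0.0092, 0.098 and -0.47 in the 4 comparisons, so the replicate numbers establish no pairing. With the numbers of the treated libraries labelled KO exchanged, an alternative added once the data had been seen, the block called 4 and 3 hyaluronan genes after TGF-β in the control group and in libraries labelled KO, and 4 pathway genes between untreated genotypes. Depth limits *Has1*, *Has3* and *Acan*, since 3 counts correspond to 0.238 to 0.661 CPM.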
